A study of Mus musculus with 3 samples.

Results

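The 8 genes described here encode adhesion molecules by which leukocytes leave the blood: the endothelial ligands Icam1, Icam2 and Vcam1, the endothelial selectins Sele and Selp, the leukocyte integrin chains Itgb2 and Itgam, and the hyaluronan receptor Cd44. They were chosen by name, with earlier results of these data known, so shares over all genes set beside them are a description only. All 8 were among the 32285 genes of the spatial transcriptome (Visium) tables. Visium captures RNA from a cryosection on an array of barcoded spots. A spot takes up the transcripts of the tissue over it, usually from more than 1 cell and more than 1 cell type. The 3 heart sections came from C57BL/6 mice 8 weeks old. The sham mouse received vehicle by gavage for 7 days and then the operation without ligation. The I/R mouse received vehicle for 7 days, then ligation of the left anterior descending coronary artery (LAD) for 30 min and 24 h of reperfusion. The SBP mouse, labelled MUSKARDIA, received Shexiang Baoxin Pill, a pill of traditional Chinese medicine, for the 7 days before the same ligation and reperfusion. Each condition has a single section and no replicate. The sections are therefore compared as sections, with no test between conditions.

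Leukocytes leave the blood in steps. Selectins on activated endothelium, P-selectin (Selp) and E-selectin (Sele), catch passing cells and let them roll. Leukocyte integrins, among them Mac-1, made of the Itgam and Itgb2 chains, then bind the immunoglobulin-like ligands ICAM-1 and ICAM-2, while VCAM-1 is bound by the integrin of the Itga4 and Itgb1 chains, and CD44 binds hyaluronan and osteopontin on and beyond the vessel wall. In the reperfused heart these steps are known for bringing in neutrophils, whose most abundant transcripts include S100a8 and S100a9, genes that monocytes also express.

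The promoters of Icam1, Sele and Selp are shown because these are endothelial genes known to be induced by inflammatory signals, and because their levels in these sections ranged from a clear difference for Selp to at most 2 UMIs (unique molecular identifiers, counted transcripts) in a section for Sele. Each is the RefSeq sequence of mouse GRCm38.p6, plus strand, from 250 bases before to 50 bases after the start site. RefSeq promoters were matched for 5 of the 8 genes (Icam1, Sele, Selp, Itgam and Cd44). Icam1 is at chr9:21015690-21015989, Sele at chr1:164047984-164048283 and Selp at chr1:164115014-164115313. Capitals mark a match to GGANNTTCC, searched on both strands.
Icam1: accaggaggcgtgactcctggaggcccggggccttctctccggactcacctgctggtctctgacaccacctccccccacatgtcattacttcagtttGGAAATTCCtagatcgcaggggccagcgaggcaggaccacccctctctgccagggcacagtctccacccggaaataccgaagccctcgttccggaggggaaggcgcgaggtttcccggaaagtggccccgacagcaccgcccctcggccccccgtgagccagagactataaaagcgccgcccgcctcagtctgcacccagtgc
Sele: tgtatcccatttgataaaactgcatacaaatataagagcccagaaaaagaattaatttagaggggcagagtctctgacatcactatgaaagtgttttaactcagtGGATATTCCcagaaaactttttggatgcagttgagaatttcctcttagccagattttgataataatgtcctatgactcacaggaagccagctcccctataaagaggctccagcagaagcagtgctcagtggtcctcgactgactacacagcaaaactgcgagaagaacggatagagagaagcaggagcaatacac
Selp: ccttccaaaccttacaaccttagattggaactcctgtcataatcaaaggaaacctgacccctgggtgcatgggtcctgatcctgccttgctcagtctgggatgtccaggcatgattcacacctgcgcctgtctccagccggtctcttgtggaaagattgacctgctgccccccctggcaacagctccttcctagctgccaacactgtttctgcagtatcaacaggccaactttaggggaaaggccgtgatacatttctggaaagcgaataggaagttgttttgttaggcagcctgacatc

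The match began 153 bases before the start site in Icam1 and 145 bases before it in Sele, and these letters were not found in the windows of Selp, Itgam and Cd44. The NF-kappaB consensus of 10 letters, which overlaps this motif where a G comes before it, matched 0 of the 5 promoters. Over all 32851 mouse promoters of this length, 4.26% held GGANNTTCC and 8.46% the NF-kappaB consensus, so the matches are a description of sequence and not of binding. Of the pair that hold the motif, Icam1 had 296 to 600 UMIs in a section and Sele at most 2.

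The kept spots held 25118258, 30238530 and 21631280 unique molecular identifiers (UMIs) in sham, I/R and SBP, over 2234, 2082 and 1960 spots. The median per spot was higher in I/R (14672 UMIs) than in sham (10645) and SBP (10652). Shares of spots were therefore taken after spots with at least 6500 UMIs had been thinned at random to 6500. This left out 132, 202 and 213 shallower spots in sham, I/R and SBP. Values of thinned spots thus describe the deeper spots only. The level of a gene is its UMIs over all spots per 1000000 UMIs (CPM), and all intervals are 95% intervals that cover counting error only. Markers fixed for heart tissue were present in every section, with cardiomyocyte markers at 20062, 15794 and 17312 CPM for sham, I/R and SBP. Endothelial markers summed to 888, 883 and 827 CPM, and general leukocyte markers (Ptprc, Laptm5, Coro1a, Cd53 and Cd52) to 114, 325 and 166 CPM, in that order. Of the barcodes, 1093 occurred in all 3 sections, since Visium barcodes name positions on the slide.

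Of the 8 genes, 7 had at least 50 UMIs in each pair of sections and were compared. In I/R over sham, 4 of the 7 (Selp, Cd44, Itgam and Itgb2) were at least 2-fold higher, against 8.38% of all genes compared, and none was at least 2-fold lower, against 0.523%. In SBP over I/R, 2 of the 7 (Cd44 and Itgam) were at least 2-fold lower, against 4.53% of all genes, and none was at least 2-fold higher, against 0.337%. Itgam sat at that threshold, with a log2 ratio of -1.03 that became -0.97 without mitochondrial genes, -0.87 with TMM factors and -0.89 with median-of-ratios factors. In SBP over sham only Selp was at least 2-fold higher, against 1.48% of all genes, and none was at least 2-fold lower, against 0.731%. The median log2 ratio of the 7 genes was 1.48 in I/R over sham, -0.92 in SBP over I/R and 0.57 in SBP over sham, beside 0.24, -0.17 and 0.08 for all genes compared. The 3 comparisons share sections in pairs, so they are not independent of each other. Scaling by TMM factors in place of total UMIs lowers every log2 ratio of I/R over sham by 0.22 and raises every one of SBP over I/R by 0.16.

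**Figure D1:**
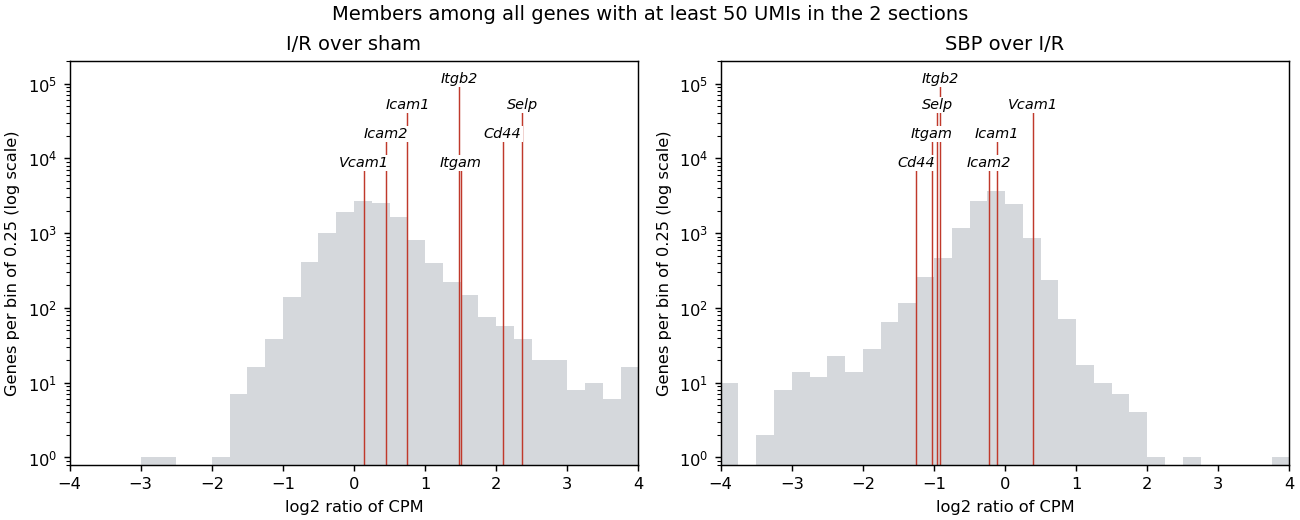
The log2 ratio of CPM of I/R over sham and of SBP over I/R is on the horizontal axes, and the number of genes per bin of 0.25 on a log scale is on the vertical axes, for all genes with at least 50 UMIs in the pair of sections; ratios beyond 4 in size are counted in the outermost bins. Red lines mark the 7 adhesion genes, of which Selp, Cd44, Itgam and Itgb2 lie at 1.48 or above in I/R over sham and at -0.92 or below in SBP over I/R.

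Selp was the endothelial gene with the largest difference between sections. P-selectin is stored in endothelial cells and platelets and is brought to the surface on activation. The gene (ENSMUSG00000026580) lies on chromosome 1 of GRCm38, from 164115264 to 164150026. Its 24 UMIs in sham gave 0.956 CPM (0.612 to 1.42), its 149 in I/R gave 4.93 CPM (4.17 to 5.79) and its 55 in SBP gave 2.54 CPM (1.92 to 3.31). The 3 intervals did not overlap, with SBP between sham and I/R. I/R was higher than sham by a log2 ratio of 2.37 (1.74 to 3.05), and SBP was lower than I/R by a log2 ratio of -0.96 (-1.43 to -0.50) and higher than sham by 1.41 (0.70 to 2.17). In bulk tissue of this kind, a change in the number of cells of a type and a change in RNA per cell cannot be told apart.

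Selp transcripts were packed into few spots. After thinning, 0.523% of sham spots held a Selp UMI (0.262 to 0.934), 2.45% of I/R spots (1.80 to 3.25) and 1.03% of SBP spots (0.612 to 1.62). The 1% of spots richest in Selp held 55.0% of its UMIs in I/R and 72.7% in SBP, and a single SBP spot held 12 of the 55 UMIs. That spot also held 3 UMIs of Vwf, the von Willebrand factor gene of endothelial cells and platelets, 6 of Pecam1, 7 of Icam1, 3 of Vcam1 and 1 of the platelet gene Itga2b, and none of the platelet genes Pf4 and Ppbp. The richest I/R spot held 11 Selp UMIs, with 5 of Pecam1, 5 of Icam1 and 1 of Pf4. Without the richest 1% of spots of each section the log2 ratio of SBP over I/R was -1.67. That 1% was 20 of the 35 SBP spots with Selp, but 21 of the 85 in I/R. The step thus took a larger part of Selp from SBP, and the value cannot be set against that of all spots. All 21 sham spots with Selp fell in that 1% and left no ratio to sham. Platelet markers (Pf4, Ppbp, Itga2b, Gp9 and Gp1bb) summed to 65.8, 149 and 71.9 CPM in sham, I/R and SBP, but 4293 of the I/R UMIs were of Pf4, which macrophages also express. Itga2b had a log2 ratio of I/R over sham of 0.30 (-0.44 to 1.06), and Gp9 and Gp1bb had at most 10 UMIs in a section. Their part in the Selp result was not tested. Per 1000 UMIs of the endothelial markers, Selp was at 1.08 (0.689 to 1.60) in sham, 5.58 (4.72 to 6.55) in I/R and 3.08 (2.32 to 4.00) in SBP.

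Sele, which lies on the same chromosome, was too low to compare at this depth. E-selectin appears on endothelium only after activation. The gene (ENSMUSG00000026582) spans 164048234 to 164057677 of chromosome 1. It had 0 UMIs in sham, where a count of 0 allows up to 0.119 CPM, 2 in I/R and 1 in SBP, which are counts at or under that limit, so no ratio is given.

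Icam1 was higher in both operated hearts than in sham and alike in level between them within counting error. ICAM-1 is the ligand of the Itgb2 integrins and is made by endothelium, and under inflammatory signals by many other cells. The gene (ENSMUSG00000037405) lies on chromosome 9, from 21015985 to 21028817. Its level was 11.8 CPM (10.48 to 13.2) in sham, 19.8 CPM (18.3 to 21.5) in I/R and 18.4 CPM (16.6 to 20.3) in SBP. The log2 ratio was 0.75 in I/R over sham (0.55 to 0.96) and 0.64 in SBP over sham (0.42 to 0.87). SBP over I/R was -0.11, with an interval that includes 0 (-0.29 to 0.08), and with TMM factors this ratio was 0.05. Icam1 thus held its level in SBP where Selp, Itgb2, Itgam and Cd44 were lower than in I/R. The paper's text names Icam1 among inflammation genes that it associates with SBP in endothelial nuclei or their subgroups, without a direction. The levels here are of whole sections. Per 1000 UMIs of the endothelial markers, Icam1 was at 13.3 (11.8 to 14.9) in sham, 22.5 (20.7 to 24.3) in I/R and 22.3 (20.1 to 24.6) in SBP. The marker total hardly differed between sections, but Fabp4 made up 13703 of its 22314 UMIs in sham. Single markers had log2 ratios of SBP over I/R from -1.06 for Cldn5 to 0.14 for Tie1. Without Fabp4, the relative log2 ratio of Icam1 in I/R over sham was 0.57, beside 0.76 with it.

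Icam2 differed little. ICAM-2 is made by endothelium at rest as well as under inflammation. The gene (ENSMUSG00000001029) lies on chromosome 11, from 106377656 to 106388075, on the minus strand. Its level was 21.1 CPM (19.3 to 22.9) in sham, 28.9 CPM (27.0 to 30.9) in I/R and 24.7 CPM (22.6 to 26.9) in SBP. I/R was above both other sections, whose intervals barely overlapped. The log2 ratio of I/R over sham was 0.46 (0.30 to 0.61), above that of 68.5% of all genes compared, and with TMM factors it was 0.24. SBP over I/R was -0.23 (-0.38 to -0.07), or -0.068 with TMM factors.

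Vcam1 was the one gene of the 8 whose level in SBP was above both other sections. VCAM-1 is bound by the integrin of the Itga4 and Itgb1 chains and is made by activated endothelium and by stromal cells. The gene (ENSMUSG00000027962) lies on chromosome 3, from 116109949 to 116129688, on the minus strand. Its level was 15.7 CPM (14.1 to 17.3) in sham, 17.3 CPM (15.9 to 18.8) in I/R and 22.7 CPM (20.8 to 24.9) in SBP. Sham and I/R overlapped in interval, and the log2 ratio between them was 0.15 (-0.05 to 0.34), which turned to -0.075 with TMM factors. SBP over I/R was 0.40 (0.22 to 0.58), above that of 95.1% of all genes compared, and it lay between 0.25 and 0.55 under every scaling and spot filter tried. Venous endothelial markers (Nr2f2, Vwf and Ackr1) summed to 55.0, 45.2 and 71.7 CPM in sham, I/R and SBP. Vwf made up 1141 of the 1551 UMIs in SBP. Nr2f2 had a log2 ratio of 0.24 in SBP over I/R (0.04 to 0.44) and of 0.09 in SBP over sham (-0.11 to 0.29). Ackr1, with at most 19 UMIs in a section, was too low to compare. The part of these markers in the Vcam1 result was not tested. The paper's single-nucleus data go the other way, as Vcam1 is listed there among endothelial genes lowered by SBP. That list is of endothelial nuclei, while the levels here are of whole sections with no replicate.

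**Figure D2:**
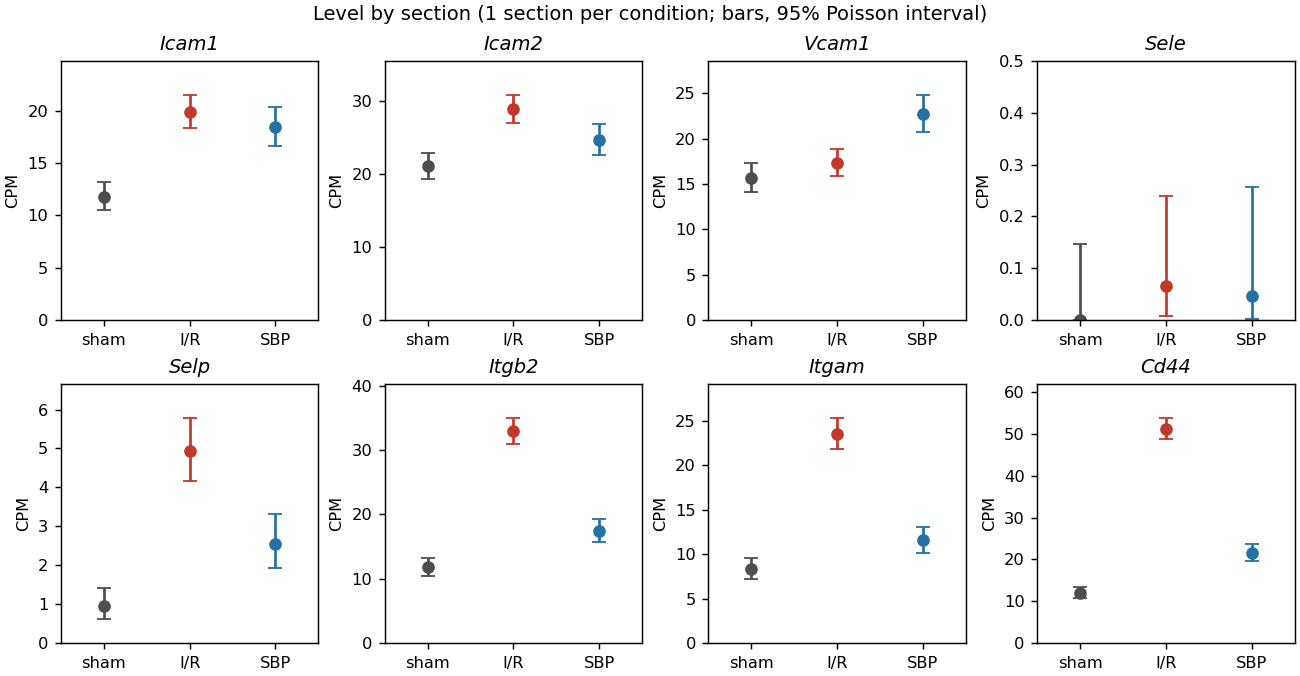
The level of each of the 8 genes in CPM (vertical axes, each from 0) is shown for the sham, I/R and SBP sections, 1 section each, with 95% Poisson intervals as bars. Selp, Itgb2, Itgam and Cd44 peak in I/R, Icam1 is near 19.8 and 18.4 CPM in both operated hearts against 11.8 in sham, Vcam1 is highest in SBP, and Sele stays at or under 2 UMIs in each section.

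On the leukocyte side, Itgb2 and Itgam were both about 2.8-fold higher in I/R than in sham. Itgb2 (ENSMUSG00000000290) encodes the beta chain shared by the leukocyte integrins and lies on chromosome 10, from 77530252 to 77565708. Itgam (ENSMUSG00000030786) encodes the alpha chain of Mac-1, made by neutrophils, monocytes and macrophages, and lies on chromosome 7, from 128062640 to 128118491, where the annotation has a second gene, Gm49368, on the same strand. Itgb2 was at 11.8 CPM (10.48 to 13.2) in sham, 32.9 (30.9 to 35.0) in I/R and 17.4 (15.7 to 19.3) in SBP. Itgam was at 8.32 CPM (7.23 to 9.53) in sham, 23.6 (21.9 to 25.3) in I/R and 11.6 (10.2 to 13.1) in SBP. For both chains I/R was highest, SBP was between, and no intervals overlapped. The log2 ratio of I/R over sham was 1.48 for Itgb2 (1.29 to 1.67) and 1.501 for Itgam (1.28 to 1.73), and that of SBP over I/R was -0.92 for Itgb2 (-1.09 to -0.74) and -1.03 for Itgam (-1.24 to -0.82).

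Both chains kept step with the sum of the 5 general leukocyte markers, though not with the sums of the narrower marker lists. Per 1000 UMIs of the 5 general leukocyte markers, Itgb2 was at 103 (91.6 to 115) in sham, 101 (94.95 to 108) in I/R and 105 (94.6 to 116) in SBP. Itgam was at 72.7 (63.2 to 83.3) in sham, 72.4 (67.2 to 77.9) in I/R and 69.5 (61.2 to 78.7) in SBP. The log2 ratio of these relative levels in I/R over sham was -0.03 for Itgb2 (-0.22 to 0.17) and -0.01 for Itgam (-0.23 to 0.22), and in SBP over I/R it was 0.05 (-0.12 to 0.23) and -0.06 (-0.27 to 0.15). Every one of these intervals includes 0. Without the marker with the most UMIs, the I/R over sham values were -0.19 and -0.17. The monocyte and macrophage markers summed to log2 ratios of 0.93 in I/R over sham and -0.78 in SBP over I/R. The neutrophil markers summed to 1.74 and -0.50. These sums rest on abundant genes. Lcn2 made up 1855 of the 2715 neutrophil-marker UMIs in sham and 2654 of the 5527 in SBP. Single monocyte and macrophage markers ranged from 0.18 for C1qa to 2.01 for Ccr2 in I/R over sham. In SBP over I/R they ranged from -1.52 for Ccr2 to -0.275 for C1qa. Whether the chains followed 1 leukocyte type was not tested.

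Cd44 differed more than the sum of the 5 leukocyte markers, though not more than each of them. CD44 is made by leukocytes and also by activated stromal and vascular cells. The gene (ENSMUSG00000005087) lies on chromosome 2, from 102811141 to 102901665, on the minus strand. Its level was 12.02 CPM (10.7 to 13.5) in sham, 51.3 (48.7 to 53.9) in I/R and 21.6 (19.7 to 23.6) in SBP. I/R stood apart from both other sections, and SBP was above sham. The log2 ratio was 2.09 in I/R over sham (1.91 to 2.28), -1.25 in SBP over I/R (-1.40 to -1.10) and 0.84 in SBP over sham (0.63 to 1.06). Per 1000 leukocyte-marker UMIs it was at 105 (93.6 to 118) in sham, 158 (150 to 166) in I/R and 130 (118 to 142) in SBP, a log2 ratio of 0.58 in I/R over sham (0.41 to 0.77) and of -0.28 in SBP over I/R (-0.43 to -0.13). Of the single markers, Cd52 had a log2 ratio of 2.06 (1.90 to 2.22) for I/R over sham and Ptprc one of -1.37 (-1.65 to -1.10) for SBP over I/R, both within reach of Cd44.

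At equal depth the share of spots with a UMI followed the order of the levels for the 7 genes compared. Cd44 was found in 5.85% (4.89 to 6.94) of sham spots, 19.6% (17.9 to 21.5) of I/R spots and 9.50% (8.17 to 10.97) of SBP spots. Itgb2 was found in 5.76%, 15.4% and 8.41% of spots, and Itgam in 3.71%, 11.7% and 4.87%, in the same order. Both leukocyte integrin chains thus reached more spots in I/R, while Itgam in SBP overlapped sham in interval (3.91 to 5.98 against 2.94 to 4.61). Icam1 was found in 7.66% (6.56 to 8.88) of sham spots, 10.6% (9.23 to 12.1) of I/R spots and 9.85% (8.49 to 11.3) of SBP spots. Icam2 was found in 12.7%, 16.7% and 13.1% of spots, and Vcam1 in 8.23%, 10.2% and 11.6%. For Vcam1 the intervals of I/R (8.83 to 11.6) and SBP (10.1 to 13.2) overlapped, and without thinning the shares were 19.1% and 18.7%. Its higher level in SBP than in I/R was thus not resolved by share. The interval in I/R lay above that in sham for 6 of the 7 genes with at least 50 thinned UMIs, all but Vcam1, against 29.6% of all genes. It lay above that in SBP for 5 of 7 (Icam2, Selp, Itgb2, Itgam and Cd44), against 18.9%, and SBP lay above sham for 3 of 6 (Vcam1, Itgb2 and Cd44), against 8.5%. Without thinning, the shares were larger, such as 9.71%, 34.4% and 15.9% for Cd44. Sele was found in 0 of 2102 sham spots and 0 of 1880 I/R spots, which allow shares of up to 0.143% and 0.160%.

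**Figure D3:**
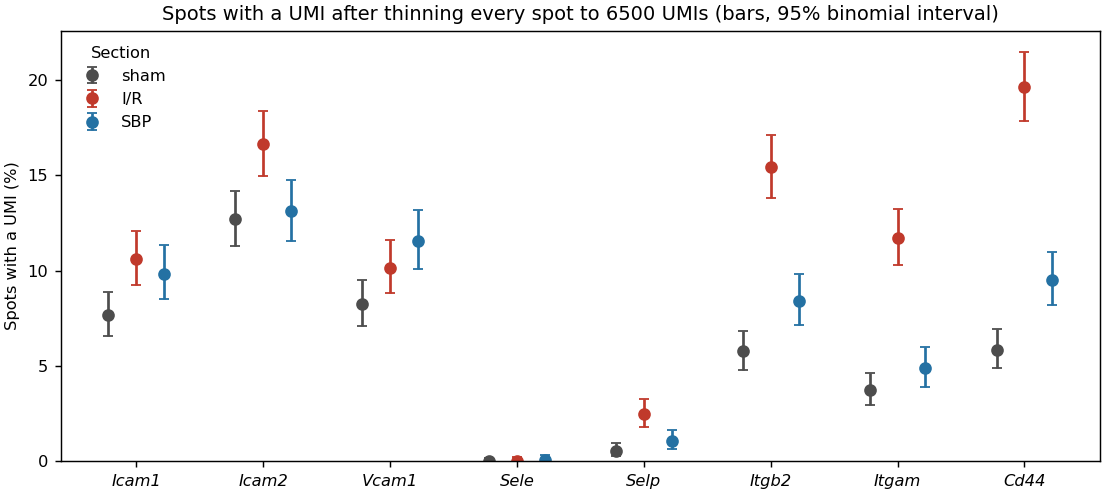
The percentage of spots with at least 1 UMI of each gene (vertical axis) is shown for the sham (2102 spots), I/R (1880 spots) and SBP (1747 spots) sections. Bars are 95% binomial intervals. Spots with at least 6500 UMIs were thinned to 6500, and shallower spots were left out. Cd44, Itgb2 and Itgam stand highest in I/R, at 19.6%, 15.4% and 11.7% of spots, while the 3 sections lie closer together for Icam1, Icam2 and Vcam1.

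Spots were next divided by the neutrophil transcripts S100a8 and S100a9, using the thinned UMIs. At least 1 UMI of either was found in 153 of 2102 spots in sham (7.28%, 6.21 to 8.47), 580 of 1880 in I/R (30.9%, 28.8 to 33.0) and 293 of 1747 in SBP (16.8%, 15.1 to 18.6). Without thinning the shares were 10.4%, 48.3% and 25.7%. Spots counted as without S100a8 or S100a9 can thus have held such a UMI before thinning, most of all in I/R. S100a8 itself was at 10.2, 108 and 51.8 CPM in sham, I/R and SBP, and Ly6g, another neutrophil gene, had at most 1 UMI in a section. The 10 listed neutrophil markers summed to 108, 362 and 256 CPM, a log2 ratio of SBP over I/R of -0.50 against -1.06 for S100a8. Of the 9 compared, only Lcn2 was higher in SBP than in I/R, at 73.9, 84.4 and 122.7 CPM in sham, I/R and SBP. In the I/R section 5 of 7 genes compared were at least 2-fold higher in the spots with S100a8 or S100a9, but so were 31.9% of all genes. In the sham section 4 of 6 were, against 10.4% of all genes, and in the SBP section 3 of 6 were, against 6.96%. The median log2 ratio over the adhesion genes was 1.65, 2.59 and 1.22 in sham, I/R and SBP, beside 0.28, 0.70 and 0.26 for all genes.

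The leukocyte genes were concentrated in these spots. In I/R, Itgam was at 63.1 CPM in spots with S100a8 or S100a9 (55.4 to 71.7) and 7.22 CPM elsewhere (5.52 to 9.27), a log2 ratio of 3.13 (2.72 to 3.56). Cd44 was at 129 CPM (118 to 141) and 16.7 CPM (14.1 to 19.7), a log2 ratio of 2.95 (2.68 to 3.23). Itgb2 was at 80.4 CPM (71.6 to 90.0) and 13.4 CPM (11.02 to 16.1), a log2 ratio of 2.59 (2.27 to 2.91). Of all the UMIs of a gene in the thinned I/R spots, the 30.9% of spots with S100a8 or S100a9 held 79.6% for Itgam, 77.5% for Cd44 and 72.8% for Itgb2. In SBP the same log2 ratios were lower, at 1.70 for Itgam (1.09 to 2.30), 2.17 for Cd44 (1.77 to 2.58) and 1.59 for Itgb2 (1.12 to 2.04), and none of the 3 intervals overlapped that of I/R. This contrast depended on the threshold for Cd44, which with at least 3 S100a8 and S100a9 UMIs was at 2.76 in SBP and 2.95 in I/R, and with at least 10 at 2.84 and 2.78, while Itgb2 was then at 2.37 and 2.69. In sham the log2 ratios of Itgam, Cd44 and Itgb2 were 2.23, 2.44 and 2.53. Genes in general were less concentrated in these spots in SBP, where 6.96% were at least 2-fold higher, against 31.9% in I/R. Ranked among all genes compared, Itgam was above 99.3% in I/R and 99.1% in SBP, Cd44 above 99.0% and 99.7%, and Itgb2 above 98.1% and 98.7%. Ranks this near the top cannot show whether the 3 differed in size between the operated hearts relative to other genes. The median gene was at 0.70 in I/R and 0.26 in SBP.

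Selp had the largest log2 ratio in I/R, though its interval overlapped those of Itgam, Cd44 and Itgb2. Selp was at 15.4 CPM in spots with S100a8 or S100a9 (11.7 to 19.9) and 1.54 CPM in the others (0.819 to 2.63). The log2 ratio was 3.32 (2.44 to 4.31), with 13 UMIs in the other spots, and the spots with S100a8 or S100a9 held 81.7% of Selp UMIs. With at least 3 S100a8 and S100a9 UMIs required, Selp was at 2.90, below Itgam at 3.13 and Cd44 at 2.95. In SBP the 24 Selp UMIs of the thinned spots were divided into 14 in spots with S100a8 or S100a9 and 10 in the others, too few for a ratio under the minimum of 50, and in sham into 2 and 9.

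Icam1 was tied to these spots in I/R and much less in SBP. In I/R it was at 36.1 CPM in spots with S100a8 or S100a9 (30.3 to 42.7) and 11.01 CPM in the others (8.88 to 13.5), a log2 ratio of 1.71 (1.32 to 2.11). In SBP it was at 21 CPM (15.0 to 28.6) and 16.3 CPM (13.8 to 19.1). The log2 ratio was 0.37 (-0.17 to 0.88), an interval that holds 0 and does not reach that of I/R. In SBP it was higher without thinning, at 0.66, and with another random draw, at 0.65, beside 1.68 and 1.62 in I/R. In sham the levels were 25.1 and 11.9 CPM, a log2 ratio of 1.08 (0.40 to 1.69). In the spots without S100a8 or S100a9, Icam1 did not differ detectably between I/R and sham (log2 ratio -0.12, -0.50 to 0.27), while SBP was above I/R by 0.57 (0.19 to 0.95) and above sham by 0.45 (0.12 to 0.79). In the spots with them, SBP was below I/R by -0.78 (-1.33 to -0.26). By this division, the like totals of Icam1 were made up of a level concentrated in these spots in I/R and a more even one in SBP. The contrast is one of spots with and without S100a8 or S100a9 only. Over all spots, the 1% richest in Icam1 held 13.8% of its UMIs in I/R and 16.1% in SBP.

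Icam2 was not detectably enriched in these spots, with log2 ratios of -0.66 (-1.55 to 0.12) in sham, 0.29 (-0.04 to 0.61) in I/R and 0.00 (-0.50 to 0.48) in SBP, every interval including 0. The I/R value was above that of 27.9% of all genes compared. It depended on the threshold, at 0.65 with at least 3 S100a8 and S100a9 UMIs required and 0.67 with at least 10. Vcam1 was higher in these spots in each section, by 0.98 (0.32 to 1.58) in sham, 0.82 (0.40 to 1.23) in I/R and 0.86 (0.41 to 1.29) in SBP. That was above the ratio of 88.8% of all genes compared in sham and 89.0% in SBP, but of 57.4% in I/R, where the median gene was at 0.70. In spots without S100a8 or S100a9, Vcam1 was at 13.3, 13.4 and 17.7 CPM in sham, I/R and SBP, so that SBP was the highest there too, by 0.40 over I/R (0.05 to 0.76). Of the leukocyte genes in those spots, Cd44 and Itgb2 were still above sham in I/R, by 0.996 (0.62 to 1.37) and 0.84 (0.43 to 1.24), and the interval of Itgam included 0 (0.43, -0.10 to 0.95). Some of those I/R spots held S100a8 or S100a9 UMIs that thinning removed.

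**Figure D4:**
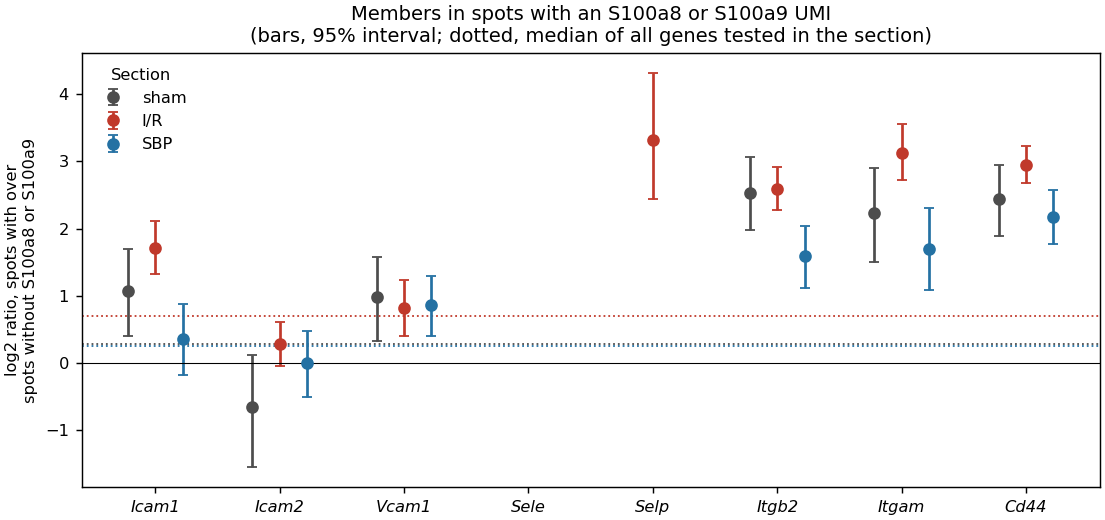
The log2 ratio of CPM in spots with over spots without a UMI of S100a8 or S100a9 (vertical axis) is shown by gene and section, with 95% intervals as bars and the median of all genes compared in a section as a dotted line; genes under 50 UMIs in a section have no point. Itgb2, Itgam and Cd44 lie at 1.59 or above in all 3 sections, Icam2 lies near or below 0.29, and Icam1 goes from 1.71 in I/R to 0.37 in SBP.

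In I/R the levels of Icam1 and Cd44 were higher the more S100a8 and S100a9 UMIs a spot held. Icam1 was at 11.01 CPM in the 1300 spots with none, 21.8 in the 303 spots with 1 to 2, 47.1 in the 206 spots with 3 to 9 and 65.0 in the 71 spots with at least 10. Cd44 was found at levels from 16.7 through 65.0 and 168 to 288 CPM over the same spots, and in 78.9% of the spots with at least 10 (67.6 to 87.7). In SBP, Icam1 was at 16.3, 18.7, 22.7 and 38.5 CPM, and the last value rests on 4 UMIs in 16 spots (10.48 to 98.5). In sham, the 26 spots with 3 to 9 had 13 Icam1 UMIs, which gave 76.9 CPM (41.0 to 132). At 3 to 9 UMIs, where both operated hearts had over 50 spots, Icam1 was at 47.1 CPM (36.2 to 60.2) in I/R and 22.7 (12.1 to 38.9) in SBP, intervals that overlap at their ends, and Cd44 at 168 (147 to 192) and 87.4 (64.9 to 115), intervals that do not.

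**Figure D5:**
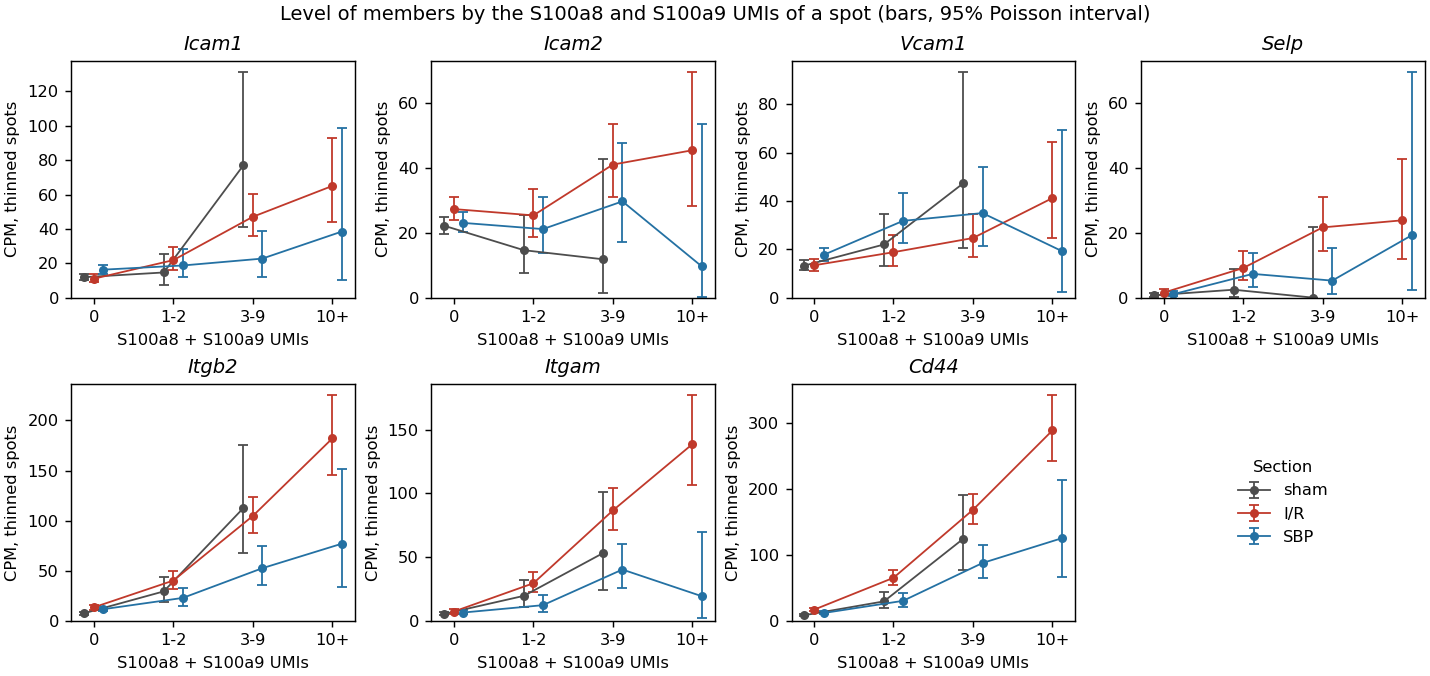
The level in CPM of the thinned spots (vertical axes, each from 0) is shown for 7 genes by the summed S100a8 and S100a9 UMIs of the spot (0, 1 to 2, 3 to 9, at least 10) in each section, with 95% Poisson intervals as bars; the single sham spot with at least 10 is left out. Itgb2, Itgam and Cd44 climb with the class in I/R, Cd44 from 16.7 to 288 CPM, and Icam1 climbs from 11.01 to 65.0 CPM in I/R and lies between 16.3 and 38.5 CPM in SBP.

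Other cell markers moved with these spots. In I/R, spots with S100a8 or S100a9 had 2593 CPM of monocyte and macrophage markers against 608 in the others, 758 against 120 of general leukocyte markers and 315 against 77.8 of platelet markers. Endothelial markers were at 1039 against 835 CPM, and cardiomyocyte markers at 10900.5 against 18218 CPM. Mitochondrial genes took 33.7% of UMIs there against 49.0% in the other I/R spots. In SBP the monocyte and macrophage markers were at 998 against 578 CPM and the mitochondrial share at 43.5% against 47.4%. The part of each in the results by spot was not tested.

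Some adhesion genes were found in a larger share of the spots with their partner than of the other spots, and for others the intervals overlapped. No such share was taken over all genes, so these values describe the pairs only. In I/R, Icam1 was found in 28.2% of the 220 spots with Itgam (22.3 to 34.6) and in 8.25% of the other spots (6.97 to 9.68), and in 21.03% of the 290 spots with Itgb2 (16.5 to 26.2) against 8.68%. Icam2, which binds the same integrin family, was in 20.0% of spots with Itgb2 (15.6 to 25.1) against 16.0% of the others (14.3 to 17.9), intervals that overlap. Vcam1 was in 18.6% of the 43 spots with Itga4 (8.39 to 33.4) against 9.96% (8.63 to 11.4), which overlap as well. Cd44 was in 35.8% of the 851 spots with Spp1, the osteopontin gene, and in 6.22% of the others. Selp was in 6.31% of the 206 spots with Selplg, the gene of its ligand PSGL-1 (3.40 to 10.6), against 1.97% (1.36 to 2.76). In SBP, Icam1 was in 18.8% of the 85 spots with Itgam (11.2 to 28.8) against 9.39% (8.03 to 10.9). It was in 18.4% of the 147 SBP spots with Itgb2 (12.5 to 25.6) against 9.06% (7.70 to 10.6). Cd44 was in 22.6% of the 319 SBP spots with Spp1 against 6.58%. Selp was there in 1 of the 66 spots with Selplg (1.52%, 0.0384 to 8.16) against 1.01%.

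Likeness between genes was taken as Pearson's r of log2(1 + thinned UMIs) across the 1880 thinned I/R spots. The genes most like Cd44 among 7352 genes found in at least 5% of spots were Spp1 (r = 0.59), Actb (0.58) and Laptm5 (0.57). For Itgb2 they were Spp1 (0.52), Fn1 (0.50) and Tgfbi (0.49), and for Itgam Tgfbi (0.53), Spp1 (0.50) and Fn1 (0.50). Icam1 was most like Tgfbi (0.28), Laptm5 (0.27) and Fn1 (0.27), and in SBP the same 3 values were 0.09, 0.08 and 0.08. Since the genes were picked for their r in I/R, lower values elsewhere are no result, and those of Cd44 with Spp1, Itgb2 with Spp1 and Itgam with Tgfbi were lower in SBP too, at 0.30, 0.35 and 0.25. No gene reached 0.2 with Icam2 or Vcam1, and Sele and Selp were in too few spots. These spots share 1 library and 1 tissue section, so the values of r describe that section.

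The list of other adhesion genes was also chosen with earlier results of these data known. Of 46 other adhesion genes matched in the tables, 39 were compared between I/R and sham. Of these, 18 were at least 2-fold higher, against 8.38% of all genes, and none at least 2-fold lower, against 0.523%. Their median log2 ratio was 0.80, beside 0.24 for all genes. In SBP over I/R, 10 of 39 were at least 2-fold lower, against 4.53% of all genes, and none at least 2-fold higher, against 0.337%. The median was -0.47, beside -0.17 for all genes. In SBP over sham 3 of 36, Itgal and Gcnt1 among them, were at least 2-fold higher, against 1.48%. The median there was 0.27, beside 0.08. Of 7 genes compared for selectin ligands and their glycosylation, 3 were at least 2-fold higher in I/R than in sham, against 8.38% of all genes. The median log2 ratio of the 7 was 0.54. Selplg went from 5.57 CPM in sham to 19.3 in I/R and 8.32 in SBP. Gcnt1, whose enzyme builds the sugar core of selectin ligands, was at 2.39, 8.83 and 5.87 CPM, and Fut4, which fucosylates them, had 14, 46 and 13 UMIs. The other 4 of the 7 had log2 ratios of I/R over sham of -0.06 for St3gal6, 0.23 for Podxl, 0.40 for B4galt1 and 0.54 for St3gal4.

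Of 8 integrin chain genes compared, 5 (Itgal, Itgax, Itga4, Itgb7 and Itga5) were at least 2-fold higher in I/R than in sham, against 8.38% of all genes. In SBP over I/R, 2 (Itgax and Itga4) were at least 2-fold lower, against 4.53%. Itgal, the alpha chain of LFA-1, had log2 ratios of 2.43 in I/R over sham (1.71 to 3.24) and -0.61 in SBP over I/R (-1.10 to -0.13). Itga4, whose product binds VCAM-1, was at 1.71, 4.33 and 1.90 CPM in sham, I/R and SBP, an order unlike that of Vcam1. Of 5 genes listed for integrin activation or its regulation, Fermt3 (kindlin-3), Apbb1ip and Cytip had log2 ratios of I/R over sham of 1.08, 1.07 and 1.40. Those of Tln1 and Rasgrp2 were under 2-fold, at 0.799 and 0.325. None of the 7 endothelial junction genes compared (Pecam1, Cd99l2, F11r, Jam2, Jam3, Esam and Cdh5) was 2-fold different in any comparison, which also holds for most genes, as 8.38% of all genes were 2-fold higher and 0.523% lower in I/R over sham. Their median log2 ratio in I/R over sham was 0.10.

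Of 8 genes compared for partners of Cd44 and the matrix, 5 were at least 2-fold higher in I/R than in sham, against 8.38% of all genes. In SBP over I/R, 4 were at least 2-fold lower, against 4.53%. Hyal2, Ezr and Lyve1 were under 2-fold, with log2 ratios of I/R over sham of 0.568, -0.035 and -0.314. Spp1 was at 107, 456 and 147 CPM in sham, I/R and SBP, with log2 ratios of 2.10 in I/R over sham (2.04 to 2.16) and -1.63 in SBP over I/R (-1.69 to -1.57). Fn1, the fibronectin gene, was at 50.4, 229 and 94.2 CPM. The hyaluronan synthase genes were low, with 5, 76 and 13 UMIs of Has1 and 18, 69 and 14 of Has2. Msn, the gene of moesin, which links CD44 to the cell cortex, was at 61.4, 152 and 111 CPM in sham, I/R and SBP. Alcam, an adhesion molecule of the immunoglobulin family, was at 2.47, 8.04 and 4.25 CPM.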

How the data were processed

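Spatial transcriptome libraries (Visium, cryosections 10 µm thick) were analysed, 1 section for each of the sham, I/R and SBP conditions. Single-nucleus data were not used here. The authors deposited unnormalized counts of UMIs per gene and spot over tissue. The submitters' processing notes name Space Ranger 1.3.0 and mm10, while the methods of the paper give a different version with a human genome. The files list mouse genes. Positions are from GENCODE M21 (GRCm38), in which 32158 gene identifiers were found and 127 were not.

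Spots under 200 detected genes were left out (3 in sham, 1 in I/R, 2 in SBP). Thinning to 6500 UMIs, the 10th percentile of spots rounded down, left out 132, 202 and 213 shallower spots. Intervals (95%) were exact Poisson for a UMI sum or CPM, conditional binomial (exact) for a ratio and Clopper-Pearson for a share. A ratio needed at least 50 UMIs in the groups compared, and a count of 0 was read as up to 3. The ratios and the thinning were tested on simulated data. The section sums were drawn there from the Poisson model behind the intervals. That test checks the calculation and does not cover the packing of UMIs into few spots. No p-value is given, since no condition has a replicate, and spots were neither clustered nor named as cell types.

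The 8 genes, the marker lists and the list of 47 other adhesion genes, of which 46 were matched, were chosen with earlier results of these data known. Named genes were the 8, S100a8, S100a9, listed adhesion genes past 2-fold in I/R over sham or SBP over I/R, and up to 3 genes most like each of the 8. The genes in the Selp-rich spots, Ly6g, Lcn2, and the single leukocyte, monocyte and macrophage, endothelial and platelet markers were named after their values were seen. So were the junction genes and the selectin ligand, integrin activation and Cd44 partner genes under 2-fold. One gene that the rule selects is not reported here. Alternatives were other denominators, scalings, spot weights, filters, depths and S100a8 or S100a9 thresholds. Computations used Python 3.11.15 with scipy 1.17.1, numpy 2.4.6, matplotlib 3.10.9 and pandas 2.3.3, with TMM factors after the published formula.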

Additional observations from a re-analysis of the deposited data

How the results depend on the processing

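No paired analysis was possible because there is a single section of each condition, and for the same reason no replicate could be left out. No filter on spots, a minimum of 1000 UMIs per spot, and S100a8 or S100a9 alone moved no ratio of the 8 genes beyond its counting interval. The depth limits Sele, Selp in sham and SBP, and the classes of spots with at least 10 S100a8 and S100a9 UMIs. The cause of the shifts given here was not tested.

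For I/R over sham, the log2 ratios with TMM factors were 0.53 for Icam1, 0.24 for Icam2, -0.075 for Vcam1, 1.26 for Itgb2 and 1.87 for Cd44, and with median-of-ratios size factors 0.54, 0.24, -0.071, 1.27 and 1.88. With equal weight for each spot they were 1.02 for Icam1, 0.34 for Vcam1, 3.10 for Selp, 1.92 for Itgb2, 2.003 for Itgam and 2.56 for Cd44. Without the 1% of spots richest in the gene they were 1.70 for Itgb2, 1.84 for Itgam and 2.40 for Cd44, and no value was possible for Selp. For SBP over I/R, TMM factors gave -0.068 for Icam2 and -1.09 for Cd44, equal weight gave -1.72 for Selp, and leaving out the richest 1% gave -1.67 for Selp. For SBP over sham, equal weight gave 0.99 for Itgb2, 0.94 for Itgam and 1.17 for Cd44.

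The number of the 8 genes at least 2-fold lower in SBP than in I/R was 2 in the report, 1 without mitochondrial genes, 1 with TMM and 1 with median-of-ratios factors (Cd44 in each), and 4 without the richest 1% of spots. Equal weight made 2 genes at least 2-fold higher in SBP than in sham, and 8 of the other adhesion genes. With at least 200 UMIs required, fewer genes were compared, and 11 other adhesion genes were higher in I/R than in sham, 5 lower in SBP than in I/R and 0 higher in SBP than in sham. Shares of spots in I/R lay above SBP for 5 genes, against 18.9% of all genes, and for 2 after thinning to 1000 UMIs. Shares in SBP lay above sham for 3 genes, against 8.5%, and for 5 with another random draw or without thinning. For these counts the shares over all genes were taken at the setting of the report only.

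The following were added after seeing the data. With every spot thinned to one depth, I/R over sham was 0.54 for Icam1, 1.75 for Itgb2 and 1.85 for Itgam, SBP over I/R was -1.46 for Selp, -1.14 for Itgb2, -1.46 for Itgam and -1.47 for Cd44, with 4 genes at least 2-fold lower, and SBP over sham was 0.41 for Icam1, with 0 genes at least 2-fold higher, since Selp fell under 50 UMIs. In the spots without S100a8 or S100a9, I/R over sham reversed to -0.12 for Icam1, with an interval that includes 0, and was 0.84 for Itgb2, 0.43 for Itgam and 0.996 for Cd44, with 0 genes at least 2-fold higher. Selp was under 50 UMIs there and has no value. There SBP over I/R was 0.57 for Icam1, -0.21 for Itgb2, -0.16 for Itgam and -0.52 for Cd44, with 0 genes at least 2-fold lower, and SBP over sham was 0.48 for Cd44, with 0 genes at least 2-fold higher.

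With at least 3 S100a8 and S100a9 UMIs required, the log2 ratio of these spots over the others was 0.65 for Icam2 in I/R, and in SBP 2.13 for Itgb2, 2.38 for Itgam and 2.76 for Cd44. With at least 10 it was 0.67 for Icam2, 1.40 for Vcam1 and 2.22 for Selp in I/R, and in the 16 SBP spots 1.19 for Icam1, -1.27 for Icam2, 2.37 for Itgb2 and 2.84 for Cd44, and it reversed to -0.063 for Vcam1. In sham, where 1 spot reached 10, 0 genes were 2-fold higher.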
